A study of Mus musculus with 8 samples.

Results

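Among the genes measured in cultured 4T1 cells, 10 encode transcription factors known for driving or restraining epithelial-to-mesenchymal transition (EMT). They are Zeb1, Zeb2, Snai1, Snai2, Twist1, Klf4, Grhl2, Elf3, Ovol1 and Ovol2, and they were taken by gene symbol from a table of 23606 genes. All 10 were found there, and all 10 averaged at least 10 normalized counts in each group. The 4T1 line, derived from a mouse mammary carcinoma, spreads readily to the lung, and the cells were labelled wild type. The Hypo cells received SKL2001 and decitabine overnight (n = 4 libraries, replicates 2 to 5). The Ctrl cells received SKL2001 alone overnight (n = 4 libraries, replicates 1 to 4). SKL2001 binds and stabilizes β-catenin, the effector of canonical Wnt signaling. Decitabine is a cytidine analog that is built into replicating DNA, traps DNA methyltransferases and so lowers methylation of CpG sites. Both groups received SKL2001, so the comparison asks how these genes differ with decitabine in cells given a Wnt signal, and it holds no cells without SKL2001. Each library is a bulk RNA profile of a culture, in which fewer cells expressing a gene and less RNA per cell cannot be told apart.

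In EMT, epithelial cells loosen their junctions, lose apical-basal polarity and take up a migratory, mesenchymal form. Zeb1, Zeb2, Snai1 and Snai2 are zinc finger repressors that bind E-boxes, short CAGGTG or CACCTG motifs, in the promoters of junction genes such as Cdh1, which encodes E-cadherin. Twist1 is a basic helix-loop-helix factor that binds related E-boxes. On the epithelial side, Grhl2 is a grainyhead factor that activates junction genes, Elf3 is an epithelial ETS factor, and Ovol1 and Ovol2 are zinc finger repressors of mesenchymal genes, among them Zeb1. Klf4 is a Krüppel-like factor of differentiating epithelia and of stem cells. Zeb factors and several epithelial factors repress each other, and many carcinoma lines hold both kinds at once.

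The libraries held 27486245 to 36312678 reads assigned to genes in Hypo and 32390194 to 39388394 in Ctrl. Levels below are the deposited normalized counts, which are reads divided by a size factor for each library. Epithelial and mesenchymal genes were both abundant in both groups. Keratin genes Krt8 and Krt18 averaged 30837 and 24563 normalized counts in Hypo and 31063 and 24108 in Ctrl, and each Cdh1 value lay between 21788 and 25544. The mesenchymal genes Fn1 and Vim averaged 89822 and 12971 in Hypo and 106322 and 18238 in Ctrl. Ctrl replicate 3 stood apart in genes of the integrated stress response, which summed to 89114 normalized counts there, against 55438 to 68276 in the Hypo libraries and 50177 to 61713 in the other Ctrl libraries.

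Expression of the 10 factor genes did not move in a single direction. Elf3, Grhl2, Klf4 and Zeb1 rose in Hypo and Zeb2 fell, so that epithelial and mesenchymal factors were both among the genes that rose. The other 5, Snai1, Snai2, Twist1, Ovol1 and Ovol2, did not pass the test. The call required an adjusted p under 0.05 in limma, fitted to the deposited variance-stabilized values of 15746 genes. Thus 4 of the 10 factor genes were called higher in Hypo and 1 lower, where 14.1% and 8.75% of all tested genes were (22.8% in either direction). Of all called genes 61.7% were higher, a share that was 48.1% after quantile normalization. The Hypo and Ctrl values did not overlap in 6 of the 10 genes, the 5 called genes and Twist1, and in 25.7% of all tested genes. The median difference over the 10 genes was 0.27 in log2(normalized count + 1), and over all tested genes it was 0.0054. This median depended on the setting. On the variance-stabilized scale it was 0.097 over the 10 genes and 0.0035 over all tested genes. After quantile normalization these were -0.0023 and -0.025. At a minimum of 50 normalized counts, which left 8 of the factor genes, they were 0.025 and -0.012.

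**Figure D1:**
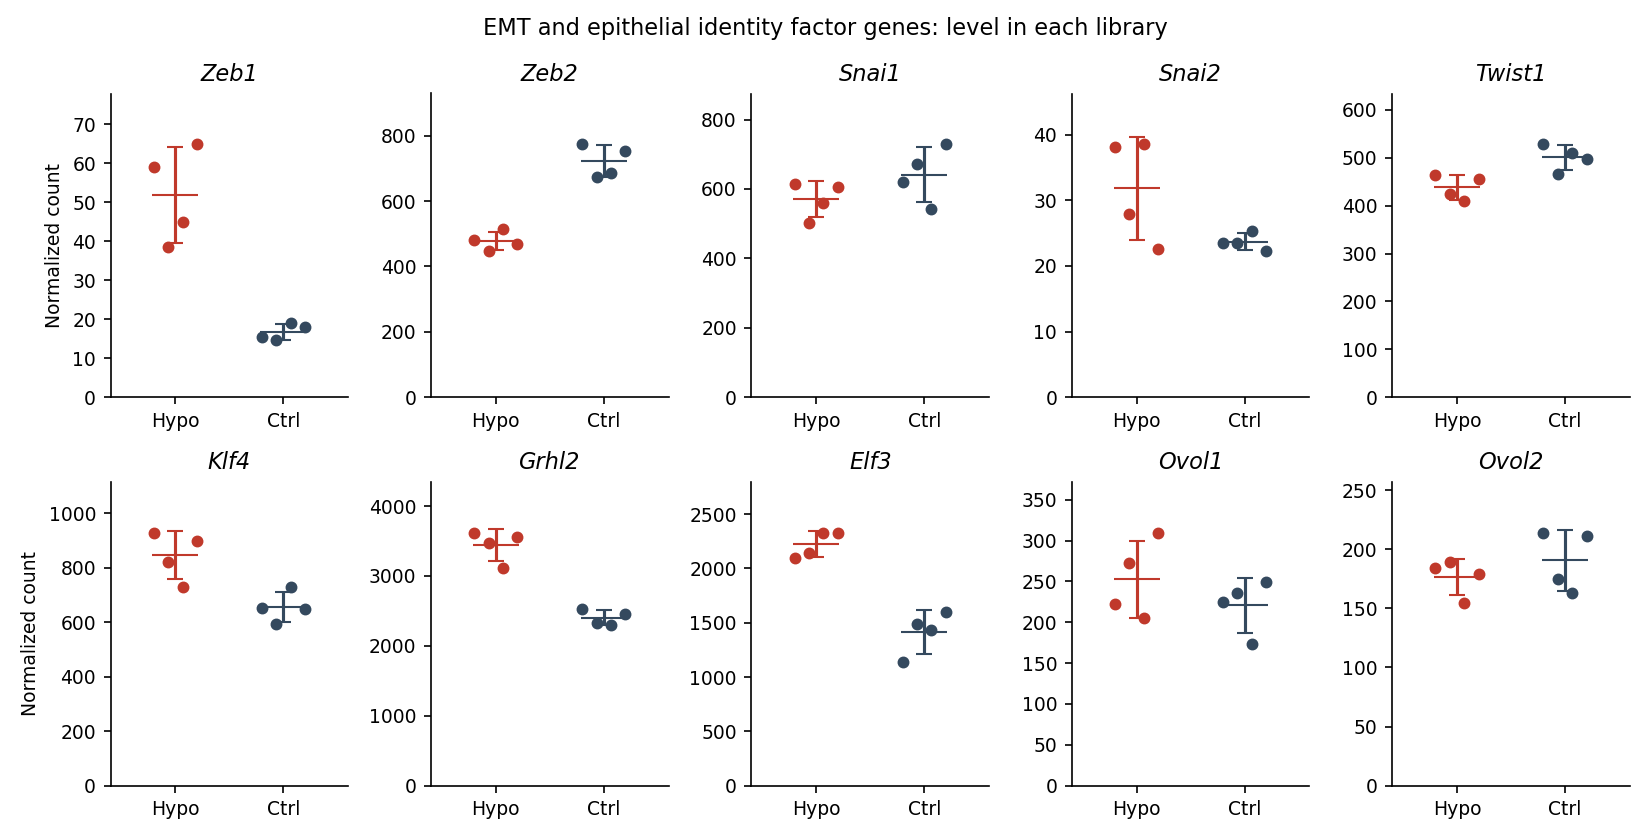
Normalized count of each of the 10 factor genes (vertical axes, each from 0) in the 4 Hypo libraries (red) and the 4 Ctrl libraries (dark blue). Points are libraries, horizontal marks are means and bars are SDs. Hypo points lie wholly above Ctrl for Zeb1, Klf4, Grhl2 and Elf3, wholly below it for Zeb2 and Twist1, and the groups overlap for the other 4 genes.

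The Zeb genes moved in opposite directions. Zeb1 (ENSMUSG00000024238, chr18:5591860-5775467, plus strand, GRCm38), whose product represses Cdh1 and other junction genes, had 59.0, 38.4, 45.0 and 64.9 normalized counts in Hypo replicates 2 to 5, against 15.4, 14.8, 19.0 and 18.0 in Ctrl replicates 1 to 4. Every Hypo library lay above every Ctrl library. The means were 51.8 ± 12.2 in Hypo and 16.8 ± 2.03 in Ctrl (SD, n = 4 each), a 3.09-fold difference. On the variance-stabilized scale, which compresses genes of low count, the difference was 0.37 ± 0.05 (SE, limma adjusted p = 4.1e-04). On log2(normalized count + 1) it was 1.55, with a 95% interval of 1.08 to 2.02. The gene stayed low in both groups. Its values rest on 44 to 66 reads per Hypo library and 15 to 21 reads per Ctrl library, the fewest of the 10 genes in Ctrl.

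Zeb2 (ENSMUSG00000026872, chr2:44983632-45117395, minus strand) encodes the paralog of Zeb1 with the same kind of DNA-binding fingers. It had 481, 449, 515 and 470 normalized counts in Hypo, against 775, 674, 687 and 752 in Ctrl. All Hypo values lay below all Ctrl values. Zeb2 was 1.51-fold lower in Hypo, with means of 479 ± 27.7 in Hypo and 722 ± 48.8 in Ctrl (SD, n = 4 each). The transformed difference was -0.43 ± 0.06 (SE, limma adjusted p = 1.6e-04). The antisense gene Zeb2os overlaps Zeb2 on the opposite strand and averaged 30.8 ± 5.31 normalized counts in Hypo and 37.5 ± 5.23 in Ctrl (limma adjusted p = 0.34). The libraries were stranded, but whether counting used the strand is not stated, so reads of a gene and of its antisense partner may not be told apart.

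Per kilobase of exon, which allows levels of different genes to be compared, Zeb2 stood above Zeb1 in all 8 libraries. The balance shifted nonetheless. Zeb1 made up 19.2%, 14.3%, 14.5% and 21.1% of the summed Zeb1 and Zeb2 level in the Hypo libraries, against 3.71%, 4.08%, 5.10% and 4.43% in the Ctrl libraries. The mean share was 17.3 ± 3.45% in Hypo and 4.33 ± 0.59% in Ctrl (SD, n = 4 each), with no overlap. The summed level was 29.1 ± 1.88 normalized counts per kilobase in Hypo and 37.8 ± 2.44 in Ctrl, again with no overlap, so the total was lower in Hypo while the share of Zeb1 was higher. No test was run on these sums of chosen genes.

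**Figure D2:**
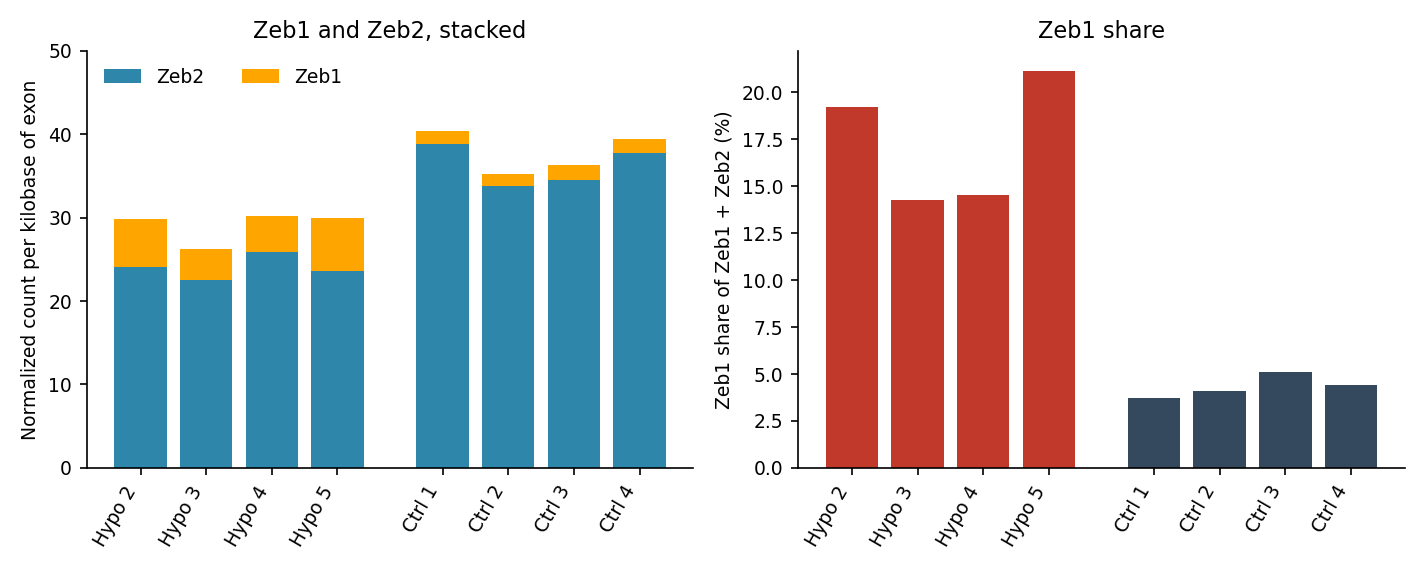
Left, Zeb2 (blue) and Zeb1 (orange) in normalized counts per kilobase of exon, stacked, for each Hypo library (left) and Ctrl library (right). Right, the percentage of the stacked level that is Zeb1, between 14.3% and 21.1% in Hypo libraries and between 3.71% and 5.10% in Ctrl libraries.

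Several markers of stromal, blood and endothelial cells were higher in Hypo, as were Zeb1, Elf3, Grhl2 and Klf4. Of the fibroblast markers, 3 of 4 tested rose (Col1a1, Col1a2 and Pdgfrb), and the 5 with values summed to 2957 to 3635 normalized counts in Hypo and 2215 to 2598 in Ctrl, most of it Pdgfra, which did not pass. The fibroblast marker Dcn averaged 3.68 normalized counts in Hypo and 0.214 in Ctrl. Both tested immune markers, Ptprc and Csf1r, rose (Pdgfrb and Ptprc averaged under 10 in Ctrl and passed the filter on low genes only through Hypo), and the immune sum was 209 to 373 in Hypo and 113 to 126 in Ctrl. Cdh5, an endothelial cadherin gene, averaged 78.2 ± 10.5 in Hypo and 16.2 ± 5.70 in Ctrl and rose, whereas Pecam1 averaged 19.9 ± 2.88 and 16.1 ± 8.42 and did not pass. The endothelial sum was 113 to 136 in Hypo and 28.1 to 57.4 in Ctrl. Called higher were thus 75% of the 4 tested fibroblast, 100% of the 2 immune and 50% of the 2 endothelial markers. Of all tested genes 14.1% were called higher. Whether any such cells were present in the cultures, or added to the values of Zeb1 and the other factors, was not tested.

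Snail and Twist genes did not pass the test. Snai1 (chr2:167538195-167542814, plus strand), an early inducer of EMT, had 615, 503, 560 and 606 normalized counts in Hypo, against 620, 671, 543 and 729 in Ctrl. The groups overlapped, and the log2(normalized count + 1) difference was -0.16 with a 95% interval of -0.38 to 0.06 (limma adjusted p = 0.28). Snai2 (chr16:14705852-14709385, plus strand), which encodes Slug, had 38.2, 27.9, 38.6 and 22.6 in Hypo, against 23.6, 23.5, 25.4 and 22.2 in Ctrl. Of the Hypo libraries 3 lay above all Ctrl libraries and replicate 5 lay among them. The interval of the Snai2 difference was wide, -0.09 to 0.85 around 0.38 (limma adjusted p = 0.22). The values rest on 23 to 42 reads per library, and their SD was 7.86 in Hypo and 1.29 in Ctrl. Twist1 (chr12:33957671-33959829, plus strand) had 465, 424, 410 and 455 in Hypo, against 529, 467, 511 and 498 in Ctrl.

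All Hypo values of Twist1 lay below all Ctrl values, although the highest Hypo value and the lowest Ctrl value were less than 2 counts apart. The Twist1 difference was -0.19 in log2(normalized count + 1), with an interval of -0.36 to -0.03 before adjustment and a limma adjusted p of 0.096. The call depended on the setting, with adjusted p between 0.027 and 0.39 and a call of lower in 4 of 23 settings.

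Epithelial factors Grhl2 and Elf3 rose together with Klf4. Grhl2 (ENSMUSG00000022286, chr15:37233036-37363569, plus strand) had 3621, 3478, 3112 and 3565 normalized counts in Hypo, against 2529, 2326, 2304 and 2454 in Ctrl. The groups were well apart, and the lowest Hypo library, replicate 4, was above the highest Ctrl library. Means were 3444 ± 229 in Hypo and 2403 ± 107 in Ctrl (SD, n = 4 each), a 1.43-fold difference, and the transformed difference was 0.47 ± 0.05 (SE, limma adjusted p = 6.2e-05). Grhl2 is crossed by the antisense gene Gm16136, which averaged 131 ± 4.32 in Hypo and 103 ± 11.7 in Ctrl (limma adjusted p = 0.051). Against the level of Grhl2 these counts were small.

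Elf3 (ENSMUSG00000003051, chr1:135253575-135258568, minus strand), an ETS factor of epithelial differentiation that inflammatory signals also induce, had 2101, 2144, 2329 and 2330 normalized counts in Hypo, against 1134, 1491, 1435 and 1599 in Ctrl. Hypo values were close to each other and all above Ctrl, where replicate 1 was the lowest. Means were 2226 ± 121 in Hypo and 1415 ± 199 in Ctrl (SD, n = 4 each), a 1.57-fold difference, and the transformed difference was 0.58 ± 0.08 (SE, limma adjusted p = 2.6e-04). Its antisense neighbor Gm26642 averaged 112 ± 11.7 in Hypo and 88.8 ± 9.88 in Ctrl (limma adjusted p = 0.095).

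Klf4 (ENSMUSG00000003032, chr4:55527143-55532466, minus strand) had 929, 823, 731 and 898 normalized counts in Hypo, against 654, 595, 729 and 647 in Ctrl. The groups touched without overlapping: Hypo replicate 4 and Ctrl replicate 3 were less than 2 counts apart. Means were 845 ± 88.3 in Hypo and 656 ± 55.4 in Ctrl (SD, n = 4 each), a 1.29-fold difference, and the transformed difference was 0.28 ± 0.07 (SE, limma adjusted p = 0.012). Ctrl replicate 3 is the library with the high stress response sum. It also held the highest Ctrl value of Klf4, and without it the transformed difference was 0.31 (limma adjusted p = 0.0033). Other omissions brought Klf4 close to the threshold. The difference was 0.24 both without Hypo replicate 2 (limma adjusted p = 0.045) and without Ctrl replicate 2 (limma adjusted p = 0.046).

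Ovol genes, which encode repressors of Zeb1 and other mesenchymal genes, did not pass the test. Ovol1 (chr19:5549136-5560646, minus strand) had 222, 272, 206 and 310 normalized counts in Hypo, against 225, 236, 173 and 250 in Ctrl, and the groups overlapped. Its log2(normalized count + 1) difference was 0.19, with an interval of -0.14 to 0.52 (limma adjusted p = 0.41). Ovol2 (chr2:144305175-144332146, minus strand) had 184, 189, 154 and 179 in Hypo, against 214, 175, 163 and 211 in Ctrl, and also overlapped. Its difference was -0.10, with an interval of -0.37 to 0.16 (limma adjusted p = 0.58). The interval of Ovol1 includes a difference as large as that of Klf4.

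**Figure D3:**
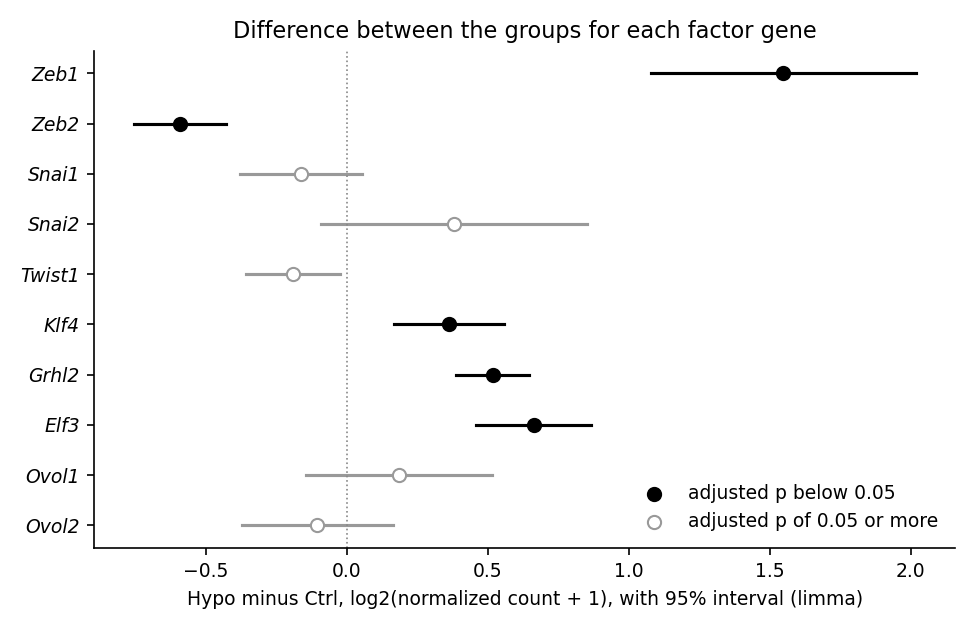
Difference of Hypo minus Ctrl in log2(normalized count + 1) for each factor gene, with its 95% interval from limma (n = 4 per group). Filled points passed an adjusted p below 0.05, and open points did not. Zeb1 lies farthest to the right at 1.55 and Zeb2 farthest to the left at -0.59.

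Because decitabine acts on CpG sites, the 250 bases before the transcription start were read for 3 of the factor genes that passed. These were Elf3, Klf4 and Zeb2, with promoters from RefSeq (GRCm38.p6). CpG dinucleotides are in capitals in the sequences of Elf3 (chr1:135258473-135258722), Klf4 (chr4:55532476-55532725) and the outermost listed start of Zeb2 (chr2:45117443-45117692), each printed 5′ to 3′ on the minus strand.
Elf3 promoter: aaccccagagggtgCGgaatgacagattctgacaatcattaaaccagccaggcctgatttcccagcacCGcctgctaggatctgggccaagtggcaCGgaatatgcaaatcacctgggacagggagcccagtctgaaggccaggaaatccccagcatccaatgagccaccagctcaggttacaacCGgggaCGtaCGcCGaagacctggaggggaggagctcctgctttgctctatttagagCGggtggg
Klf4 promoter: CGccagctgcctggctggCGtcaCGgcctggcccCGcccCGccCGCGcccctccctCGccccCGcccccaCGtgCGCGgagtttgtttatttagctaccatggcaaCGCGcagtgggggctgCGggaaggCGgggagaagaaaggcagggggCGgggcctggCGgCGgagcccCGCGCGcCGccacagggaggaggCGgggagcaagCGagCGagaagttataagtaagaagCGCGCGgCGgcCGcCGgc
Zeb2 promoter: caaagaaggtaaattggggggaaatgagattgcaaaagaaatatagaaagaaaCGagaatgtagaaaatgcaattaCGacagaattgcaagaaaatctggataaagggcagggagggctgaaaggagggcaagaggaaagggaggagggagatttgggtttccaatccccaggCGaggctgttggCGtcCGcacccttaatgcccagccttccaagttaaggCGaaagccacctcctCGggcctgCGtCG
The 3 genes differed widely in CpG content. Klf4, which rose, holds 32 CpG sites in this window, Elf3, which also rose, holds 8, and Zeb2, which fell, holds 9 at this start and 6, 6 and 14 at its other listed starts. Over 32851 promoter windows the median was 6, with quartiles of 2 and 16. Of the genes that did not pass, Snai1 holds 27, Ovol2 20 and Twist1 18. CpG methylation was not measured in these libraries. Zeb1, Snai2, Grhl2 and Ovol1 were not analyzed in this respect.

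Per kilobase of exon, Elf3 was the most abundant of the 10 factor transcripts in both groups, at 1004 ± 54.6 normalized counts per kilobase in Hypo and 638 ± 89.9 in Ctrl (SD, n = 4 each). Zeb1 was the least abundant, at 5.05 ± 1.19 in Hypo and 1.63 ± 0.20 in Ctrl. In Hypo the order after Elf3 was Grhl2 (400), Snai1 (352), Klf4 (277), Twist1 (269), Ovol2 (83.6), Ovol1 (72.4), Zeb2 (24.0), Snai2 (15.7) and Zeb1. Of these neighbors, Grhl2 and Snai1, Klf4 and Twist1, and Ovol2 and Ovol1 overlapped over the 4 Hypo libraries. In Ctrl the order after Elf3 was Snai1 (395), Twist1 (308), Grhl2 (279), Klf4 (215), Ovol2 (90.3), Ovol1 (63.3), Zeb2 (36.2), Snai2 (11.7) and Zeb1. There only Twist1 and Grhl2 overlapped. Grhl2 thus overlapped Snai1 in Hypo and lay wholly below it in Ctrl. Zeb transcripts were well below those of Snai1 and Twist1 in both groups.

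Relatives of the factors showed that grainyhead genes shared a direction. Besides Grhl2, both other members of that family rose: Grhl3, an epidermal barrier factor, had 510, 475, 383 and 421 normalized counts in Hypo, against 320, 354, 328 and 289 in Ctrl (1.39-fold, limma adjusted p = 0.0074). Grhl1, a desmosome gene activator, had 238, 276, 222 and 291 in Hypo, against 198, 203, 197 and 201 in Ctrl (1.29-fold, limma adjusted p = 0.031). Neither gene overlapped between the groups. The Grhl1 call was lost without Hypo replicate 3 (adjusted p = 0.096) or 5 (0.074), without Ctrl replicate 1 (0.076), 2 (0.066) or 4 (0.070), and after quantile normalization.

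Of 20 tested relatives in all, from the Snail, grainyhead, Elf and Klf families, 4 rose and 2 fell. That is 30% called, against 22.8% of all tested genes. The others that rose were Klf12, which encodes a repressor (166 ± 23.4 in Hypo and 84.2 ± 6.95 in Ctrl), and Klf11 (389 ± 64.6 and 275 ± 66.4), whose groups overlapped. The 2 that fell were Klf3 (1.21-fold lower) and Elf4 (1.13-fold lower). The median difference over the 20 was -0.04 in log2(normalized count + 1), and without single libraries 2 to 5 rose and 1 to 3 fell. The count that rose was 2 without Hypo replicate 3 or Ctrl replicate 1, 2 or 4, and the count that fell was 1 without Hypo replicate 3 or Ctrl replicate 2 or 4. Calls of Klf11 and Elf4 were among those lost, with adjusted p up to 0.123 for Klf11 without Ctrl replicate 2 and 0.063 for Elf4 without Ctrl replicate 4.

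Of 17 tested other factors linked to EMT, 5 fell in limma and none rose, nor did any rise at an unadjusted p below 0.05, in edgeR or in DESeq2. In limma 29.4% were thus called, against 22.8% of all tested genes. These counts rest on the filter on low genes. It removed the homeobox genes Prrx1 and Prrx2, which averaged 13.9 ± 3.89 and 7.87 ± 2.93 normalized counts in Hypo and 2.20 ± 1.69 and 3.59 ± 1.55 in Ctrl, without overlap, and without the filter Prrx1 was called higher (limma adjusted p = 0.0022), giving 1 higher and 5 lower of 19. Both were named after their values were seen. Sox4, an SRY-box factor induced by TGF-β, had 3189, 3277, 3633 and 3592 normalized counts in Hypo, against 5574, 4907, 4397 and 5494 in Ctrl, 1.49-fold lower and without overlap (limma adjusted p = 2.4e-04). Hmga2, a chromatin protein gene, had 3124, 3294, 3332 and 3652 in Hypo, against 4899, 4287, 4064 and 5094 in Ctrl, 1.37-fold lower and without overlap (limma adjusted p = 0.0012). The forkhead gene Foxc1 (1.35-fold lower) and the ETS gene Ets1 (1.16-fold lower) were also among the 5. The median difference over all 17 was -0.09 in log2(normalized count + 1). The count was 3 without Hypo replicate 2 or 4 or Ctrl replicate 1 or 2, when Foxc1 was among those that lost their calls.

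Other epithelial factors went both ways, 3 up and 3 down among 9 tested, with a median difference of 0.11 in log2(normalized count + 1). That is 66.7% called, against 22.8% of all tested genes. At a minimum of 50 normalized counts 1 rose and 3 fell of 7. Tfap2c, which encodes the AP-2γ factor of mammary and trophoblast cells, had 231, 183, 190 and 192 normalized counts in Hypo, against 111, 121, 119 and 123 in Ctrl (1.68-fold, limma adjusted p = 5.2e-04). The basal factor gene Trp63 averaged 23.7 ± 4.27 in Hypo and 7.17 ± 3.95 in Ctrl, and it passed the filter on low genes only through Hypo. Gata3, the luminal mammary factor gene, had 2133, 2095, 2336 and 2178 in Hypo, against 3175, 2820, 2884 and 3124 in Ctrl, 1.37-fold lower and without overlap (limma adjusted p = 1.3e-04). The epithelial splicing factor genes Esrp1 (1.13-fold lower) and Esrp2 (1.15-fold lower) also fell, and both lost the call after quantile normalization. The Esrp2 call was also lost without Hypo replicate 3, 4 or 5 or Ctrl replicate 1, 2 or 4, with adjusted p of 0.052 to 0.122.

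Of 32 tested junction, polarity and keratin genes that E-box repressors and grainyhead factors are described to regulate, 7 rose, 2 fell and 23 did not pass, so that 28.1% were called, against 22.8% of all tested genes, with a median difference of 0.03 in log2(normalized count + 1). Cdh1, the best known target of Zeb and Snail proteins, had 24005, 23580, 21788 and 23177 normalized counts in Hypo, against 24492, 23151, 25544 and 24912 in Ctrl, and overlapped (limma adjusted p = 0.26). The genes that rose included Muc1, a surface mucin gene, with 512, 561, 356 and 603 in Hypo, against 222, 276, 163 and 212 in Ctrl (2.33-fold, limma adjusted p = 4.2e-04). Tjp3, a tight junction scaffold gene, rose 1.77-fold, Ap1m2, a subunit gene of the epithelial clathrin adaptor, 2.44-fold, and Mal2, a gene of apical transport, 1.48-fold, each without overlap.

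Epcam, which encodes an epithelial adhesion molecule, had 13744, 13167, 12651 and 12674 normalized counts in Hypo, against 10495, 10512, 10652 and 10670 in Ctrl. Each Hypo library was above each Ctrl library, a 1.23-fold difference (limma adjusted p = 3.6e-04). Patj and Cgn, genes of polarity and tight junction proteins, were the 2 that fell, 1.24-fold and 1.12-fold lower. Without single libraries 5 to 7 target genes rose and 1 to 3 fell. The count that fell was 1 without Hypo replicate 2 or 3 or Ctrl replicate 4, when Cgn lost its call (adjusted p of 0.084 to 0.093).

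The promoter of Epcam (chr17:87635729-87635978, plus strand, GRCm38.p6) shows the motif that Zeb and Snail proteins bind. Matches to CAGGTG or CACCTG, which are reverse complements of each other and so cover both strands, are in capitals and begin 187 and 19 bases before the start.
Epcam promoter: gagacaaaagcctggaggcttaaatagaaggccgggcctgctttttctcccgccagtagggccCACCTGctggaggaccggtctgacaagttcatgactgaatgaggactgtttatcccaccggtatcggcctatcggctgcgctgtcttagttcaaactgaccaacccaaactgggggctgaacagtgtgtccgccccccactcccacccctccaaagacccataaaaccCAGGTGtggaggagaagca
Among target genes with a listed promoter, 15 of 22 held a match in the 250 bases before a start (68.2%), against 19.4% of 27025 genes. The list was drawn up from genes described as targets of E-box-binding and grainyhead factors, so this share describes the list. Of the 6 target genes that rose and have a listed promoter, 5 held a match. Of the factor genes themselves, promoters were read for Elf3, Klf4, Zeb2, Snai1, Ovol2 and Twist1 only. Among these a match lay 140 bases before the start of Elf3 and 126 bases before that of Snai1. These matches are letters in a window and not measured binding sites.

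**Figure D4:**
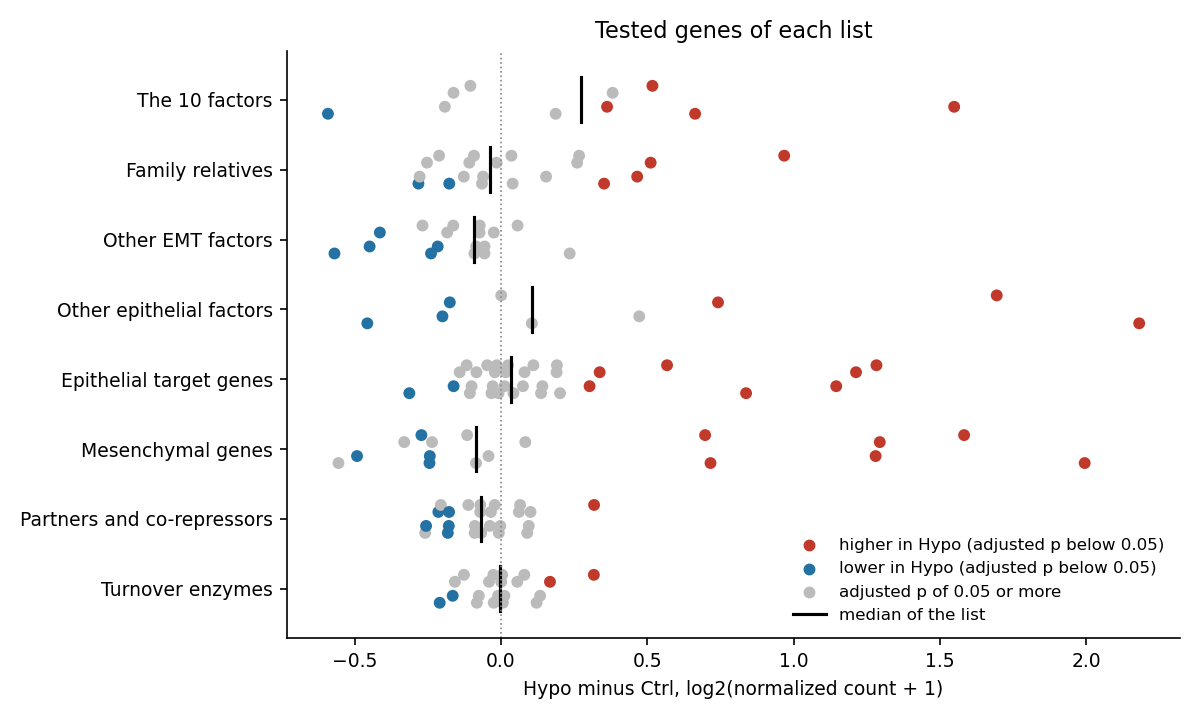
Difference of Hypo minus Ctrl in log2(normalized count + 1) for every tested gene of each list, with genes that passed higher in red, lower in blue and others in gray, and the list median as a black line. The 10 factors spread from -0.59 to 1.55, the other EMT factors hold blue and no red points, and most target and partner genes lie near 0.

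Mesenchymal genes split in 2. Of 17 tested, 6 rose and 4 fell, with a median difference of -0.09 in log2(normalized count + 1). That is 58.8% called, against 22.8% of all tested genes. The 6 include Mmp2 (15.5 ± 3.81 in Hypo and 4.63 ± 1.90 in Ctrl, named after its value was seen), which passed the filter on low genes only through Hypo. At a minimum of 50 normalized counts 5 rose and 4 fell of 14, and without the filter 8 rose and 4 fell of 21. Abundant genes were among those that fell: Vim, which encodes vimentin, had 13625, 12648, 13023 and 12587 normalized counts in Hypo, against 18362, 17569, 18261 and 18759 in Ctrl, without overlap (limma adjusted p = 1.0e-05). Axl, a receptor tyrosine kinase gene (1.18-fold lower), Fn1, the fibronectin gene (1.18-fold lower), and Tnc, the tenascin C gene (1.21-fold lower), fell as well, but after quantile normalization the Fn1 difference had the opposite sign and the Axl call was lost. Both type I collagen genes rose. Col1a1 had 1068, 1001, 700 and 1171 in Hypo, against 377, 445, 397 and 376 in Ctrl (2.47-fold, limma adjusted p = 5.1e-05). Col1a2 rose 4.14-fold, the protease gene Mmp9 2.50-fold and the matricellular gene Postn 1.63-fold. Col1a1 and Col1a2 are also on the fibroblast marker list given beside Zeb1. Without Ctrl replicate 3 the number of mesenchymal genes that fell was 6.

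Of 24 tested genes of partners and co-repressors that these factors recruit, 1 rose, 5 fell and 18 did not pass, so that 25% were called, against 22.8% of all tested genes, with a median difference of -0.07 in log2(normalized count + 1). Kat2b, an acetyltransferase gene, rose 1.25-fold. Ctbp2, which encodes a corepressor that Zeb proteins recruit, was 1.13-fold lower in Hypo, and Sin3a and Rcor1, scaffold genes of histone deacetylase complexes, were 1.19-fold and 1.16-fold lower. Limd1, a LIM domain gene, and Yap1, the Hippo pathway effector gene, were each 1.13-fold lower. Ctbp2 was named after its value was seen. The number that fell was 2 without Hypo replicate 2 or Ctrl replicate 1 or 4 and 3 without Hypo replicate 3, and the calls of Ctbp2, Limd1 and Yap1 were those lost. These counts also depended on the processing. After quantile normalization 3 rose and 3 fell, with a median transformed difference of 0.00099, against -0.066 in the main fit. With a block for the replicate number none of the 24 passed.

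Snail, Twist and Zeb proteins are also controlled by ubiquitin-dependent turnover, which RNA levels do not show. Of 20 tested genes of turnover enzymes and kinases, 2 rose and 2 fell, so that 20% were called, against 22.8% of all tested genes. Mdm2, a ubiquitin ligase gene that p53 induces, averaged 2334 ± 109 in Hypo and 1872 ± 43.3 in Ctrl, 1.25-fold higher (limma adjusted p = 8.5e-04). Usp37, a deubiquitinase gene, was 1.12-fold higher, and the ligase gene Siah1a (1.16-fold lower) and the deubiquitinase gene Usp10 (1.12-fold lower) fell. Calls of these last 3 were unstable. Without single libraries 1 or 2 genes rose and 0 or 1 fell, with 1 that rose without Hypo replicate 2, 3 or 4 or Ctrl replicate 1, 2 or 4, and none that fell without Hypo replicate 2 or 3 or Ctrl replicate 1. MicroRNA genes of the miR-200 family, which target Zeb1 and Zeb2, were not analyzed here.

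The genes most like each called factor were found among 12962 tested protein-coding genes by the root mean square distance of log2(normalized count + 1) over the 8 libraries, each gene set against its Ctrl mean. For Zeb1 the nearest was Sowahb (distance 0.18), at 229 normalized counts in Hypo and 73.2 in Ctrl, followed by Akip1 and the keratin gene Krt16. For Zeb2 they were Zfp827 (distance 0.06), at 1103 in Hypo and 1655 in Ctrl, then Sox4 from the EMT factors above and B3galnt2. Grhl2 was closest to Atp1b1, a sodium pump subunit gene (distance 0.04), at 3660 in Hypo and 2524 in Ctrl, then to Ccdc68 and Fgfr3. Elf3 was closest to the Notch ligand gene Dll4 (distance 0.10), at 351 in Hypo and 230.0 in Ctrl, then to Mettl7b and Pgf. Klf4 was closest to Mtcl1 (distance 0.06), at 2429 in Hypo and 1958 in Ctrl, then to Tfeb and Decr1. These are the nearest of many genes and describe shared profiles in these 8 libraries.

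**Figure D5:**
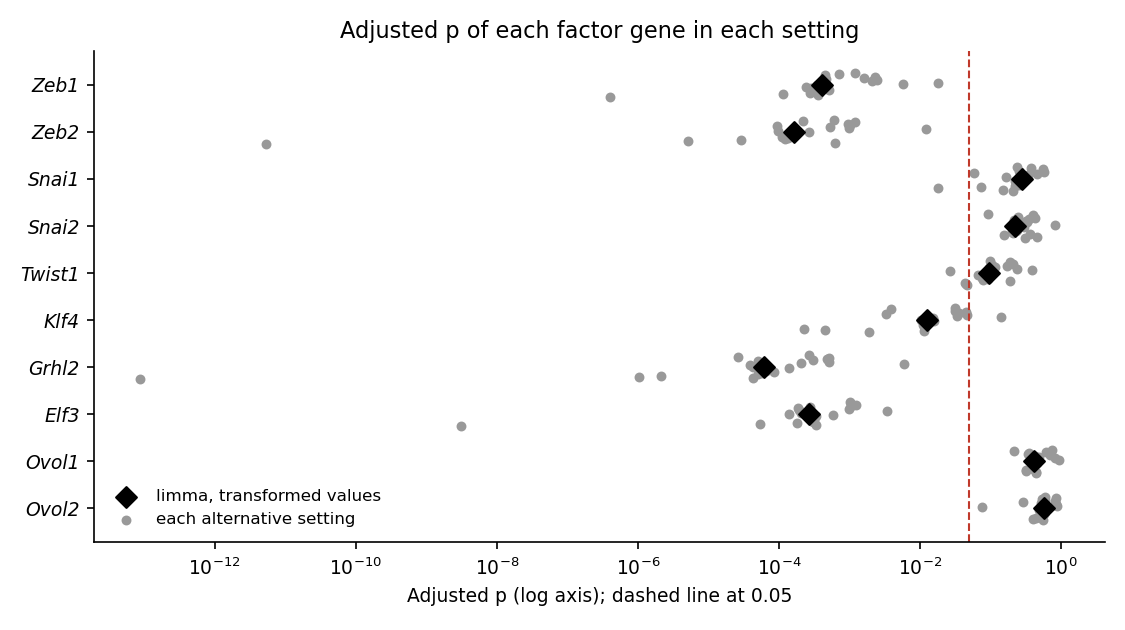
Adjusted p (horizontal log axis) of each factor gene in the fit reported here (black diamonds) and in each alternative setting (gray points), with a dashed line at 0.05. Zeb1, Zeb2, Grhl2 and Elf3 lie left of the line in every setting in which they were tested, Klf4 in 22 of 23, and Twist1 in 4 of 23.

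The calls of Elf3, Grhl2, Zeb1 and Zeb2 passed in every setting run in which each gene was tested, with adjusted p no higher than 0.0034 for Elf3, 0.0060 for Grhl2, 0.018 for Zeb1 and 0.012 for Zeb2. Leaving out any single library kept the calls of Klf4 and of these 4 genes, with limma adjusted p up to 0.046 for Klf4. No source used here states whether the 4 libraries of a group are separate cultures. The p-values therefore reflect the spread among libraries, part of which may be technical.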

How the data were processed

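RNA was measured in 8 libraries of 4T1 cells, grouped by sample title. Per the study's methods, poly(A) RNA was sequenced as stranded paired-end libraries, and trimmed reads were aligned to GRCm38 with STAR and counted per gene in htseq-count mode. STAR, HTSeq, DESeq2 and bcl2fastq are named in the submitters' processing notes. The authors deposited normalized counts, a signal obtained as reads divided by a DESeq2 size factor, and variance-stabilized values on a log2-like scale. The deposited table also holds the authors' own mean expression, log2 fold change with its error, Wald score, p-value and adjusted p-value, none of which was used. Library totals were 27486245 to 39388394 reads, and reads and intervals cover counting error and library spread only.

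Genes in both tables (23215 of 23606 and 27336) that averaged 10 or more normalized counts over the 8 libraries were tested (15746) in R 4.3.3 with limma 3.58.1 (two-sided, empirical Bayes with a mean-variance trend), p-values were adjusted over all tested genes by Benjamini-Hochberg, and the fit was made on the deposited transformed values. Fold differences are ratios of group means of normalized counts, and log2 differences use a pseudocount of 1. In every library 100% of the normalized counts were whole multiples of the value of 1 read within a tolerance of 0.01, so whole reads were recovered. On these, edgeR 4.0.16 (quasi-likelihood, TMM) called 3691 genes (23.4%), and DESeq2 1.42.0 was a further alternative. Other alternatives were no filter, a minimum of 50, leaving out each library or Ctrl replicate 3 with Hypo replicate 4, median centering, quantile normalization, a block for the replicate number, removal of GC and length trends, limma without trend, array weights, and log2 with a pseudocount of 1 or 5. The limma and edgeR fits were tested on simulated data.

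The factor genes and all lists were chosen with earlier results of these data known. All 10 factor genes are named. From each list up to 4 called genes per direction with the largest absolute transformed difference are named, with genes that overlap a factor gene, its nearest tested neighbors and the 3 genes most like each called factor. Exceptions are marked where they occur, and a few genes that this rule would name are not reported here. Gene positions are from the GENCODE release on GRCm38 that corresponds to the annotation the study used, and levels per kilobase used merged exons. Promoters came from RefSeq (GRCm38.p6). No 2 libraries agreed within sampling noise (chi-square per degree of freedom of 4.46 to 33.5 between libraries of a group).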

Additional observations from a re-analysis of the deposited data

How the results depend on the processing

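The 4 factor genes called higher in Hypo and the 1 called lower kept their direction in each alternative that tested them, and a minimum of 50 left Zeb1 and Snai2 untested. The number called lower was 2 after quantile normalization, 2 after removal of GC and length trends, 3 with array weights and 2 in DESeq2, because Twist1 passed in these (differences of -0.18, -0.15, -0.13 and -0.21, adjusted p = 0.027, 0.044, 0.043 and 0.047) and Snai1 with array weights (-0.20, adjusted p = 0.018, between 0.018 and 0.57 over all settings). The Snai2 difference, which never passed, was -0.018 after quantile normalization (adjusted p = 0.82, between 0.091 and 0.82 over all settings). The cause was not tested. Leaving out single libraries left 4 called higher and 1 called lower each time, while over all genes it gave 1800 to 2743 higher and 852 to 2095 lower (852 without Ctrl replicate 4, 862 without Hypo replicate 3, 881 without Ctrl replicate 1, 2095 without Ctrl replicate 3).

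Over all genes, 2219 were higher and 1378 lower (61.7% higher), against 1818 and 1962 after quantile normalization (48.1% higher), and 3279 and 2673 with array weights. Without the filter 3309 were higher, and at a minimum of 50, 1350. The groups share the replicate numbers 2, 3 and 4, which are only numbers: libraries with the same number did not deviate together (correlations of -0.11, -0.21 and -0.17). With the replicate block 1283 genes were higher and 322 lower, and of the factor genes Klf4 did not pass (0.25, adjusted p = 0.14, between 2.3e-04 and 0.14 over all settings), leaving 3 called higher and 1 lower. Zeb1 and Snai2 rest on the fewest reads, 15 to 66 per library. Without the filter on low genes Prrx1, Spdef, Acta2, Lox and Wtip of the gene lists were also called higher. So were the fibroblast marker Dcn (limma adjusted p = 0.020) and the endothelial marker Kdr (limma adjusted p = 9.5e-04).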

Other observations

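Of the 20 nearest tested protein-coding neighbors of the factor genes, 4 passed and 16 did not, which is 20% called, against 22.8% of all tested genes. Beside Grhl2, Ncald, a calcium sensor gene on the opposite strand that ends 2.61 kilobases away, rose, with 232 ± 26.5 normalized counts in Hypo and 142 ± 21.6 in Ctrl (SD, n = 4 each, limma adjusted p = 0.0021), while Zfp706 on the other side did not pass (adjusted p = 0.95). Neither neighbor of Zeb1 (Zfp438 and Arhgap12), Zeb2 (Gtdc1 and Acvr2a), Elf3 (Arl8a and Rnpep), Snai1 (Rnf114 and Ube2v1), Snai2 (Abcc1 and Ube2v2), Ovol1 (Snx32 and Ap5b1) or Klf4 passed. Both nearest tested neighbors of Twist1, Twistnb (transformed difference -0.19, limma adjusted p = 0.018) and Snx13 (-0.22, adjusted p = 0.024), fell. They lie far from Twist1, at 516 and 1087 kilobases. Mgme1 beside Ovol2 rose (0.18, adjusted p = 0.031), and Kat14 on its other side did not pass (-0.15, adjusted p = 0.076).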
